A study of Homo sapiens with 8 samples.

Results

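The transcripts of the RNA polymerase I, II and III subunits were followed in Kasumi-1, an acute myeloid leukemia (AML) cell line that carries the AML-ETO fusion gene. All cells were electroporated with in vitro transcribed RNA (IVT-RNA), coding for GFP in the control group, for the wild type receptor NR4A1 (NR4A1 WT), or for NR4A1 with a cysteine and a glutamate of a DNA binding zinc finger changed to alanine (NR4A1 CEAA). Transcripts were measured 6 h later on 8 Affymetrix U133 Plus arrays, of which 3 belonged to the GFP group, 3 to NR4A1 WT and 2 to NR4A1 CEAA. Genes were chosen by symbol: POLR1, POLR2 or POLR3 followed by a capital letter and at most 1 further letter or digit. Of the 19775 genes with a probe set listed for exactly 1 symbol, 31 fitted, 8 named POLR1, 14 named POLR2 and 9 named POLR3. POLR2J3 and POLR2M also fitted by name but were listed only on probe sets with several symbols, and were not analysed here.

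Pol I transcribes the precursor of the large ribosomal RNAs, Pol II the messenger RNAs, and Pol III the transfer RNAs, the 5S ribosomal RNA and other small RNAs. The symbols do not fully match the enzymes. POLR1C and POLR1D are built into both Pol I and Pol III, and POLR2E, POLR2F, POLR2H, POLR2K and POLR2L are built into all of them. By the enzyme that holds the subunit, 6 members are therefore specific to Pol I, 2 shared by Pol I and Pol III, 9 specific to Pol III, 9 specific to Pol II and 5 shared by all 3. POLR2J2 and POLR2J4 are counted with Pol II, but they are copies of POLR2J with nearly the same sequence, so signal may be split among them.

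The values are log2 intensities that the authors had normalized between arrays, so a difference of 1 is a factor of 2. Array medians lay between 4.755 and 4.802, and the 31 members were above the median in all 8 arrays. Over all genes, the differences between 2 arrays of one group had an SD of 0.147 to 0.208 and those between 2 arrays of different groups an SD of 0.248 to 0.409, so no array stood apart from its group, and the labels name no batch. The labels do not say whether arrays of one group came from separate cultures, so p-values measure the spread between these arrays, which may be technical. Of the myeloid markers, MPO (14.34 to 14.43 in the 8 arrays), KIT (13.45 to 13.78) and RUNX1T1, the ETO part of the fusion gene (11.07 to 11.61), were bright. PTPRC read 9.83 to 10.6, CEBPA 7.47 to 8.11, CD34 7.44 to 7.88 and SPI1 5.72 to 6.89. The lymphoid and erythroid markers lay at 5.91 or less, a range that SPI1 reached into. Of the stromal and epithelial markers, EPCAM was bright (11.43 to 11.86), whereas COL1A1 read 7.27 to 7.61 and the other 4 read 5.63 or less. NR4A1 itself read 5.06 to 6.66 on its 3 probe sets, with 6.45 ± 0.16 (SD, n = 3) in GFP, 6.54 ± 0.07 (SD, n = 3) in NR4A1 WT and 6.54 ± 0.03 (SD, n = 2) in NR4A1 CEAA on the brightest. It is not known here whether those probe sets cover the coding part that the IVT-RNA holds, so the values are no check of the groups.

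The first comparison, NR4A1 WT against GFP, asked how the wild type receptor altered the subunit transcripts. With NR4A1 WT, 13 of 31 members (41.9%) were lower and 0 were higher, by limma with an adjusted p under 0.05 over all genes. Of all 19775 genes, 10.3% were lower and 9.97% higher by the same test. At an unadjusted p under 0.05, 17 members were lower and 1 was higher. Rank Product, the test used by the study, called 5 members lower and 0 higher at q under 0.05, beside 2.12% and 2.22% of all genes. Genes named POLR1 made up 6 of the 13 lower members, of 8 measured, genes named POLR3 4 of 9, and genes named POLR2 3 of 14. The median difference from GFP was -0.49 over the POLR1 genes, -0.17 over the POLR3 genes, -0.08 over the POLR2 genes and 0.00 over all genes on the log2 scale. In a population of cells, fewer cells of a kind and less transcript per cell cannot be told apart.

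**Figure D1:**
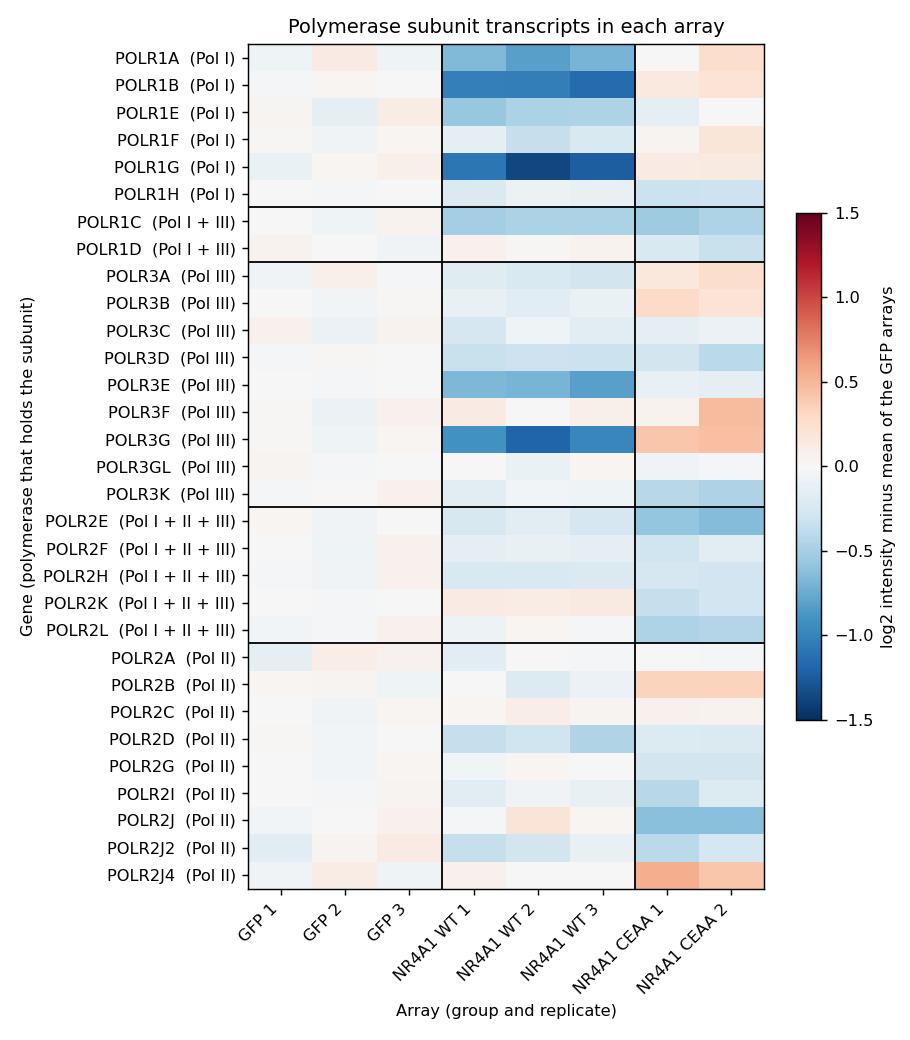
Log2 intensity of the 31 subunit genes in each of the 8 arrays, minus the same gene's GFP mean, ordered by the polymerase that holds the subunit (rows) and by group (columns). The darkest blue stands with NR4A1 WT at POLR1G, POLR1B and POLR3G, and the pale blue rows of the shared subunits stand mostly with NR4A1 CEAA.

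Among the Pol I-specific subunits, 5 of 6 fell with NR4A1 WT, with a median difference of -0.61. POLR1G, which pairs with POLR1E in the module of Pol I for initiation and elongation, fell most of all members. Its log2 intensity was 8.56, 8.69 and 8.74 in the GFP arrays, 7.58, 7.29 and 7.42 with NR4A1 WT, and 8.78 and 8.80 with NR4A1 CEAA. The NR4A1 WT arrays thus lay about 1 log2 unit below all others, and the fall of 2.35-fold (log2 difference -1.23, SE 0.08) had an adjusted p of 3.38e-05 in limma.

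POLR1B, the second-largest subunit, which closes the active cleft from the other side, fell 2.11-fold. The GFP arrays read 9.96, 10.01 and 9.97, the NR4A1 WT arrays 8.96, 8.94 and 8.82, and the NR4A1 CEAA arrays 10.13 and 10.18. The groups did not overlap, and the log2 difference of NR4A1 WT from GFP was -1.07 (SE 0.05), with limma's adjusted p = 8.36e-06. POLR1B has 4 probe sets. The followed one and a pair of others fell by 1.07, 0.96 and 0.96 with NR4A1 WT, and the remaining one gave -0.26 with an adjusted p of 0.0553 over all probe sets in limma. With NR4A1 CEAA the followed probe set differed from GFP by 0.17 without passing the test, while 2 of the other 3 were higher, by 0.33 (adjusted p = 0.0164 in limma) and 0.38 (adjusted p = 0.0186).

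POLR1A, the largest subunit, which carries the catalytic centre, read 7.73, 7.92 and 7.74 with GFP, 7.14, 6.99 and 7.10 with NR4A1 WT and 7.79 and 8.06 with NR4A1 CEAA. The wild type arrays were again the lowest, and the log2 difference was -0.72 (SE 0.09), with an adjusted p of 0.000786 in limma. The other 2 probe sets of POLR1A were dimmer and gave -0.21 (adjusted p = 0.052 over all probe sets in limma) and -0.14, neither past the test against GFP.

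POLR1E, the partner of POLR1G, read 8.14, 7.96 and 8.21 with GFP, 7.53, 7.63 and 7.64 with NR4A1 WT and 7.96 and 8.10 with NR4A1 CEAA. It fell by 0.50 (SE 0.08, limma adjusted p = 0.0025), and the NR4A1 CEAA arrays stayed within the range of GFP. The other 2 probe sets of POLR1E were dimmer. They gave -0.58 (adjusted p = 0.0913 over all probe sets in limma) and -0.17 with NR4A1 WT, neither past the test. POLR1F, the stalk subunit, fell by 0.24 (SE 0.07) with an adjusted p of 0.0436 in limma, close to the threshold. POLR1H, the zinc ribbon subunit, had a log2 difference of -0.14 (95% confidence interval -0.26 to -0.02) that did not pass the test (adjusted p = 0.111 in limma).

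POLR1C and POLR1D form the pair on which Pol I and Pol III are assembled. POLR1C read 8.81, 8.73 and 8.85 with GFP, 8.29, 8.33 and 8.33 with NR4A1 WT, and 8.27 and 8.34 with NR4A1 CEAA. It thus fell by much the same amount in both, by 0.48 with NR4A1 WT (SE 0.05, limma adjusted p = 0.00041) and by 0.49 with NR4A1 CEAA (SE 0.06, adjusted p = 0.00174). Its second probe set, nearly as bright, disagreed in part: it fell by 0.55 with NR4A1 WT but differed by -0.06 with NR4A1 CEAA, which did not pass the test. POLR1D differed by 0.05 with NR4A1 WT and fell by 0.28 with NR4A1 CEAA.

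Of the 9 Pol III-specific subunits, 4 fell with NR4A1 WT, POLR3G, POLR3E, POLR3D and POLR3A. POLR3G, one of a pair of alternative subunits in the initiation trimer and known for its high level in stem cells and tumor cells, read 7.89, 7.80 and 7.90 with GFP, 6.96, 6.67 and 6.89 with NR4A1 WT and 8.29 and 8.32 with NR4A1 CEAA. The 3 groups formed 3 separate levels, lowest with NR4A1 WT and highest with NR4A1 CEAA. The fall with NR4A1 WT was 2.03-fold (log2 difference -1.02, SE 0.08, limma adjusted p = 7.73e-05).

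POLR3GL, the alternative to POLR3G, read 9.18, 9.11 and 9.13 with GFP, 9.15, 9.04 and 9.17 with NR4A1 WT and 9.09 and 9.12 with NR4A1 CEAA. All 3 groups overlapped. The 95% interval of its difference from GFP ran from -0.15 to 0.10 with NR4A1 WT and from -0.18 to 0.10 with NR4A1 CEAA, which leaves out a change of the size of that in POLR3G. The dimmer probe sets of POLR3G were not at one with the brightest: they differed by 0.02 and -0.18 with NR4A1 WT, neither past the test.

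POLR3E, which with POLR3D forms the dimer used in initiation and termination, read 9.89, 9.86 and 9.89 with GFP, 9.21, 9.18 and 9.06 with NR4A1 WT and 9.77 and 9.75 with NR4A1 CEAA. It fell by 0.73 with NR4A1 WT (SE 0.05, limma adjusted p = 6.15e-05), and a second probe set fell by 0.94. With NR4A1 CEAA, the difference of -0.12 did not pass the test. POLR3D read 7.95, 7.99 and 7.97 with GFP, 7.64, 7.66 and 7.65 with NR4A1 WT and 7.69 and 7.56 with NR4A1 CEAA, and so fell to a similar level with both receptors, by 0.32 and by 0.35.

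The largest subunit of Pol III, POLR3A, read 8.62, 8.75 and 8.64 with GFP, 8.49, 8.44 and 8.4 with NR4A1 WT and 8.83 and 8.93 with NR4A1 CEAA. Its fall of 0.23 with NR4A1 WT passed the test (SE 0.06, limma adjusted p = 0.0272), and the difference of 0.21 with NR4A1 CEAA did not (adjusted p = 0.0608). The second-largest, POLR3B, read 8.13, 8.08 and 8.14 with GFP, 8.01, 7.96 and 8.02 with NR4A1 WT and 8.41 and 8.32 with NR4A1 CEAA. Its difference of -0.12 with NR4A1 WT was not past the test (adjusted p = 0.158 in limma). POLR3C and POLR3F of the initiation trimer and POLR3K, the zinc ribbon subunit, differed by -0.17, 0.06 and -0.10 with NR4A1 WT, none past the test.

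Of the Pol II-specific subunits, 1 of 9 fell with NR4A1 WT, and their median difference was -0.07. POLR2A, the largest subunit, whose tail of repeats is phosphorylated during transcription, read 8.01, 8.26 and 8.22 with GFP, 8.0, 8.15 and 8.14 with NR4A1 WT and 8.15 and 8.13 with NR4A1 CEAA. The groups overlapped, and the log2 differences were -0.07 (95% confidence interval -0.25 to 0.11) with NR4A1 WT and -0.03 (-0.23 to 0.17) with NR4A1 CEAA. POLR2B, the second-largest, read 13.21, 13.22 and 13.12 with GFP, 13.19, 12.97 and 13.09 with NR4A1 WT and 13.51 and 13.51 with NR4A1 CEAA. Its difference with NR4A1 WT was -0.10 (-0.25 to 0.06).

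The member of Pol II that fell with NR4A1 WT was POLR2D, of the stalk, which read 8.76, 8.70 and 8.75 with GFP, 8.39, 8.44 and 8.29 with NR4A1 WT and 8.54 and 8.52 with NR4A1 CEAA. It fell by 0.37 with NR4A1 WT (SE 0.06, limma adjusted p = 0.00216), while the difference of -0.21 with NR4A1 CEAA had an adjusted p of 0.0508. A second, dimmer probe set of POLR2D gave -0.28 with NR4A1 WT (adjusted p = 0.0612 over all probe sets in limma). With NR4A1 CEAA that probe set gave 0.21, in the other direction, and neither passed the test. The partner of POLR2D in the stalk, POLR2G, had a log2 difference of 0.00 (-0.11 to 0.11) with NR4A1 WT. Of the 5 subunits shared by all 3 enzymes, POLR2E and POLR2H fell by 0.21 and 0.23 with NR4A1 WT, and POLR2F, POLR2K and POLR2L differed by -0.13, 0.13 and -0.03 without passing the test.

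The calls of POLR1A, POLR1B, POLR1C, POLR1E, POLR1G, POLR2D, POLR3D, POLR3E and POLR3G with NR4A1 WT stood under all 16 other settings of the limma fit, among them each array left out in turn. By Rank Product, the calls of POLR1A, POLR1B, POLR1G, POLR3E and POLR3G stood, and those of POLR1C (q = 0.127), POLR1E (q = 0.107), POLR2D (q = 0.33) and POLR3D (q = 0.451) were lost, as were those of POLR1F, POLR2E, POLR2H and POLR3A. POLR1F passed in 7 of the 16, POLR2E and POLR3A in 11, and POLR2H in 15, with adjusted p up to 0.124, 0.0851, 0.178 and 0.0597. For this comparison the 16 settings are not all separate. Leaving out either NR4A1 CEAA array gave the same result as using only the arrays compared, since a mutant array left alone adds no estimate of the spread.

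**Figure D2:**
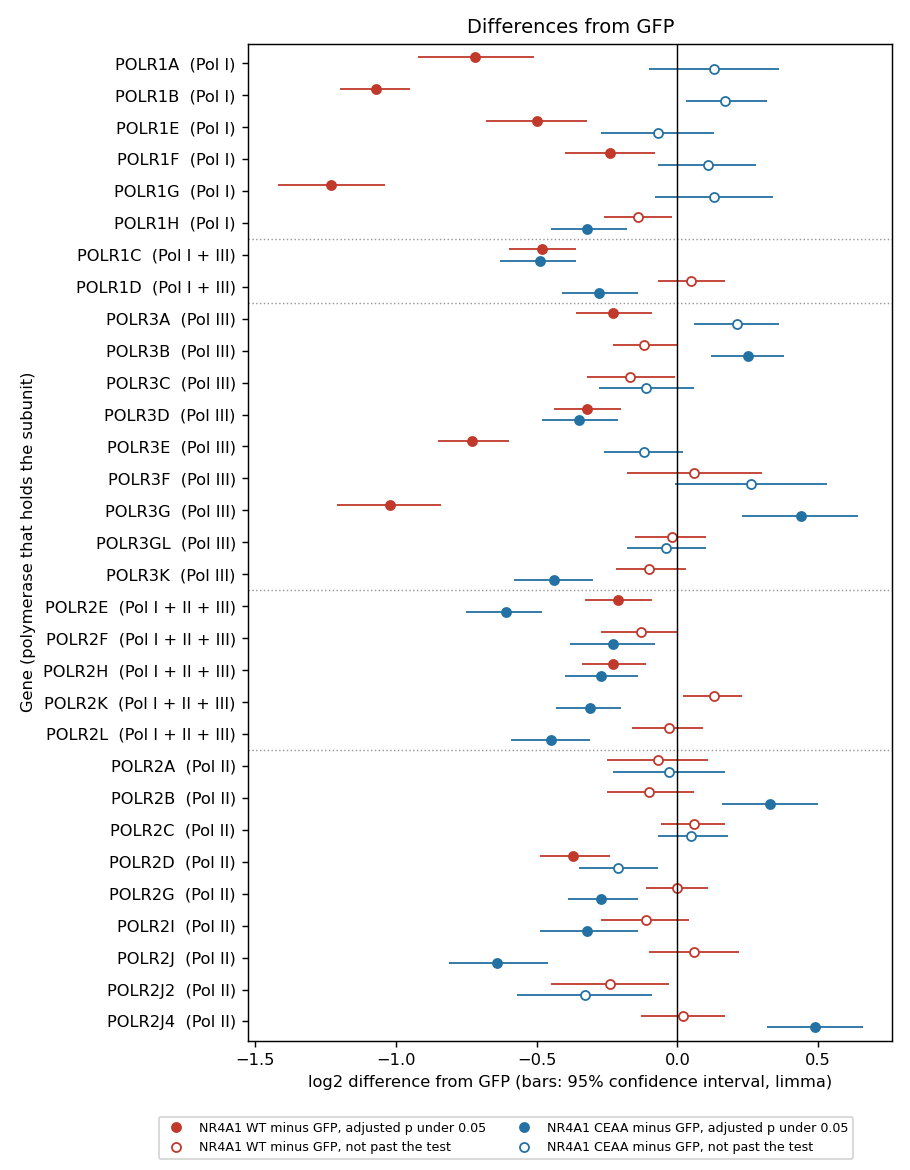
Log2 difference of NR4A1 WT (red) and NR4A1 CEAA (blue) from GFP for each subunit gene, with the 95% confidence interval from limma. Filled points passed an adjusted p under 0.05 over all genes. With NR4A1 WT, 5 of the 6 Pol I-specific genes are filled and lie to the left, and with NR4A1 CEAA, 1 of the 6 is.

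The 4 members with the largest falls for which a promoter sequence was at hand are POLR1G, POLR1B, POLR3E and POLR1A, and the 250 bases before their starts are shown so that the letters near these genes can be read (RefSeq, GRCh38.p14, written 5′ to 3′ along the gene). POLR1G starts at the end of chr19:45406394-45406643 (+ strand), POLR1B has a pair of starts, at the ends of chr2:112541786-112542035 and chr2:112542215-112542464 (+ strand), POLR3E starts after chr16:22297159-22297408 (+ strand), and the window of POLR1A, read on the - strand, is chr2:86105887-86106136. Capitals mark the E-box CACGTG, bound by MYC and related factors, in POLR1G, the core of the ETS factor site, CCGGAA on either strand, in POLR1B, and the core of the B box of transfer RNA genes, GTTCGANTC, in POLR3E. The window of POLR1A held none of these.
POLR1G: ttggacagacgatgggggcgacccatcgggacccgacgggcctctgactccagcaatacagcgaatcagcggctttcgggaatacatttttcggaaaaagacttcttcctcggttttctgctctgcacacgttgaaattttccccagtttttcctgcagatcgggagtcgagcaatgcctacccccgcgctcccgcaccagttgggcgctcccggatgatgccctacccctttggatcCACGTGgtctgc
POLR1B upstream start: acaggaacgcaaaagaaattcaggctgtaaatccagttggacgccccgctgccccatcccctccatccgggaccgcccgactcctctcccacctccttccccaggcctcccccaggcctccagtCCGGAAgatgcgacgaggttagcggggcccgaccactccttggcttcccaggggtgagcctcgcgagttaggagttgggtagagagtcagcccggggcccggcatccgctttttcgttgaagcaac
POLR1B downstream start: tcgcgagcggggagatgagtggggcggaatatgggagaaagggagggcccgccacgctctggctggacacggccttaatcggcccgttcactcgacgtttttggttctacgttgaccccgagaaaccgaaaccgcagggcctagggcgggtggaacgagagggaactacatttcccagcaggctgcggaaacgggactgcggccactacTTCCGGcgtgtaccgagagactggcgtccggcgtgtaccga
POLR3E: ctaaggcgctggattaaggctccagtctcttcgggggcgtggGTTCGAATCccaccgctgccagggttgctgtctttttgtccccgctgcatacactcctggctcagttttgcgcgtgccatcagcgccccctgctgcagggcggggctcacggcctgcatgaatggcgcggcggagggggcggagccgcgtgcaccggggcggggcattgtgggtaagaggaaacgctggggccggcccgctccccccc
POLR1A: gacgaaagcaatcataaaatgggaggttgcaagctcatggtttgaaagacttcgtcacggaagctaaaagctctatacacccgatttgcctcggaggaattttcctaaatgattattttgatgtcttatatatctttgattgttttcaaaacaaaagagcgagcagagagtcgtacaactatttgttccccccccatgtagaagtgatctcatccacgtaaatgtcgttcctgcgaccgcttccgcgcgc

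Of the 31 members, 23 matched a window by symbol. The E-box, searched on both strands, stood in 3 of the 23 (POLR1G, POLR3A and POLR3C), and in 7.73% of the 27305 genes with a window. In POLR1G it began 12 bases before the start. The NBRE, AAAGGTCA, the site that NR4A receptors bind as monomers, stood in 0 of the 23 and in 1.29% of all genes. The ETS core stood in 10 of the 23 (POLR1B, POLR1C, POLR2C, POLR2F, POLR2H, POLR2J2, POLR2L, POLR3A, POLR3C and POLR3GL) and in 17.2% of all genes. Of those 10, POLR1B, POLR1C, POLR2H and POLR3A fell with NR4A1 WT, and POLR2C, POLR2F, POLR2J2, POLR2L, POLR3C and POLR3GL did not pass that test. Among the members with a window but no ETS core, POLR1A, POLR1F, POLR1G, POLR2D, POLR2E and POLR3E also fell. There, POLR1D, POLR1H, POLR2A, POLR2B, POLR3B, POLR3F and POLR3K did not pass. Over all 31 members the share that fell was 41.9%. The B box core, searched after the sequences had been seen, stood in 1 of the 23 (POLR3E) and in 0.256% of all genes. The B box is the internal promoter element that Pol III uses at transfer RNA genes. These matches describe letters only.

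The second comparison, NR4A1 CEAA against GFP, asked what the receptor without a working DNA binding domain did. It shares the GFP arrays with the first, so the values are given side by side and not as independent results. With NR4A1 CEAA, 13 of 31 members (41.9%) were lower and 4 (12.9%) were higher in limma, beside 12.1% and 7.14% of all genes. Rank Product called 2 lower, POLR2J and POLR2E, and 0 higher, beside 1.38% and 0.465% of all genes. With NR4A1 CEAA replicate 1 left out 7 were lower and 2 higher, and with replicate 2 left out 7 were lower and 1 was higher, each from a group of 1 array that is then assumed to vary like the others.

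On the followed probe sets, all 5 subunits shared by all enzymes were lower with NR4A1 CEAA, as were both shared by Pol I and III. Of the Pol I-specific subunits 1 of 6 was lower, POLR1H. Of the Pol II-specific subunits 3 were lower and 2 higher, POLR2B and the copy POLR2J4. Of the Pol III-specific subunits 2 were lower and 2 higher. The median difference was -0.31 over the 5 fully shared subunits, 0.12 over those of Pol I, -0.21 over those of Pol II, -0.04 over those of Pol III and -0.03 over all genes. By symbol, the medians were 0.02 for POLR1, -0.27 for POLR2 and -0.04 for POLR3.

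POLR2E, a shared subunit at the jaw of the enzyme, fell most among the shared ones. It read 11.21, 11.13 and 11.18 with GFP, 10.94, 11.01 and 10.93 with NR4A1 WT and 10.60 and 10.53 with NR4A1 CEAA. The 3 groups were separate, with NR4A1 CEAA lowest, by 0.61 below GFP (SE 0.06, limma adjusted p = 0.000864), and the second probe set of POLR2E fell by 1.22. POLR2L, a small zinc-binding shared subunit, read 12.36, 12.38 and 12.47 with GFP, 12.32, 12.43 and 12.37 with NR4A1 WT and 11.94 and 11.96 with NR4A1 CEAA. It fell by 0.45 with NR4A1 CEAA (SE 0.06, adjusted p = 0.00269 in limma) with no overlap, while the arrays of NR4A1 WT lay within those of GFP or just beneath. POLR2K, POLR2H and POLR2F fell by 0.31, 0.27 and 0.23. The second probe set of POLR2K, with a mean of 9.27, differed by -0.09 and did not pass (adjusted p = 0.533 over all probe sets in limma).

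POLR2J, the Pol II counterpart of POLR1D, had the largest fall with NR4A1 CEAA among the followed probe sets, smaller than that of the second probe set of POLR2E. The arrays read 11.30, 11.33 and 11.40 with GFP, 11.31, 11.53 and 11.37 with NR4A1 WT and 10.71 and 10.71 with NR4A1 CEAA. The mutant arrays lay apart from the rest, and the fall was 0.64 (SE 0.08, limma adjusted p = 0.00177). Its copy POLR2J4, a pseudogene, read 6.42, 6.58 and 6.40 with GFP, 6.53, 6.48 and 6.46 with NR4A1 WT and 7.01 and 6.89 with NR4A1 CEAA, which is a rise of 0.49 (SE 0.07, adjusted p = 0.00389). POLR2J2 differed by -0.33 (adjusted p = 0.0613). Because these copies share sequence, the assignment of signal to any one of them is uncertain.

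POLR3K read 10.06, 10.08 and 10.15 with GFP, 9.93, 10.05 and 10.02 with NR4A1 WT and 9.67 and 9.63 with NR4A1 CEAA, a fall of 0.44 with the mutant (SE 0.06, limma adjusted p = 0.00302). The zinc ribbon subunits of all 3 enzymes were thus lower with NR4A1 CEAA, since POLR1H and POLR2I each fell by 0.32, and none of them passed the test with NR4A1 WT. Compared directly, the receptors differed past the test for POLR3K, but not for POLR1H (0.18, limma adjusted p = 0.0523) or POLR2I (0.20, adjusted p = 0.0785). The mutant's call was lost for POLR1H without either mutant array and with its probe set mean. For POLR2I it was lost without NR4A1 CEAA replicate 1 or any GFP array, and for POLR3K with its probe set mean. Higher with NR4A1 CEAA, besides POLR2J4, were POLR3G by 0.44 (SE 0.09, adjusted p = 0.0129 in limma), POLR2B by 0.33 (SE 0.07, adjusted p = 0.0187) and POLR3B by 0.25 (SE 0.06, adjusted p = 0.0179). A second probe set of POLR3G was also higher, by 0.63. The call of POLR3G with NR4A1 CEAA was lost when either mutant array was left out, with adjusted p up to 0.0813.

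POLR1C, POLR2E, POLR2J, POLR2J4 and POLR2L kept their calls with NR4A1 CEAA under all 16 settings of the limma fit, of which POLR2E and POLR2J also passed Rank Product. The other 12 lost theirs in at least 1, and POLR2F in 13, with adjusted p up to 0.259.

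**Figure D3:**
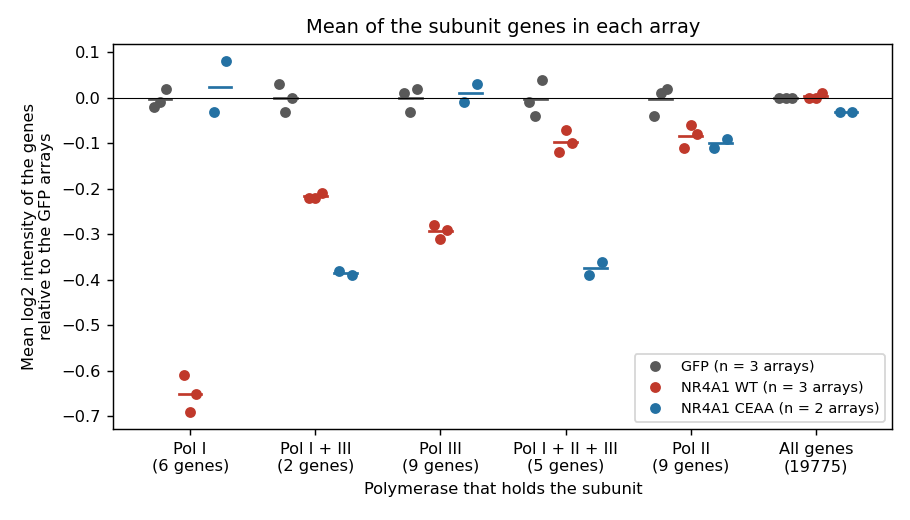
Mean log2 intensity of the subunit genes in each array, relative to the GFP mean of each gene, by the polymerase that holds the subunit, and over all 19775 genes. Each point is 1 array and each line a group mean. The NR4A1 WT arrays lie at -0.61 to -0.69 for the Pol I-specific genes, and the NR4A1 CEAA arrays at -0.39 and -0.36 for the subunits shared by all 3.

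Averaged over genes, the arrays showed the same picture. The mean of the 6 Pol I-specific genes relative to GFP was -0.61, -0.69 and -0.65 in the NR4A1 WT arrays and -0.03 and 0.08 in the NR4A1 CEAA arrays. The mean of the 9 Pol III-specific genes was -0.28, -0.31 and -0.29 with NR4A1 WT and -0.01 and 0.03 with NR4A1 CEAA. For the 5 subunits shared by all 3 enzymes the order was turned, at -0.12, -0.07 and -0.10 with NR4A1 WT and -0.39 and -0.36 with NR4A1 CEAA. The Pol II-specific genes, with the copies POLR2J2 and POLR2J4 among them, lay between -0.06 and -0.11 in the 5 arrays of both receptors. All genes lay between -0.03 and 0.01. Without the copies, the 12 genes named POLR2, which include the 5 shared subunits, lay at -0.11, -0.05 and -0.09 with NR4A1 WT. With NR4A1 CEAA they lay at -0.26 and -0.23, and with the copies kept at -0.21 and -0.19.

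Setting the calls against GFP on the followed probe sets side by side, POLR1A, POLR1B, POLR1E, POLR1F, POLR1G, POLR2D, POLR3A and POLR3E were lower with NR4A1 WT and not past the test with NR4A1 CEAA. POLR1D, POLR1H, POLR2F, POLR2G, POLR2I, POLR2J, POLR2K, POLR2L and POLR3K were lower with NR4A1 CEAA and not past the test with NR4A1 WT. POLR1C, POLR2E, POLR2H and POLR3D were lower with both. POLR3G was lower with NR4A1 WT and higher with NR4A1 CEAA, the one member with opposite calls on its followed probe set, and the second probe set of POLR1B had the same pair of calls. POLR2A, POLR2C, POLR2J2, POLR3C, POLR3F and POLR3GL passed neither test. Of these, POLR2C and POLR3C each had a second probe set that was lower with NR4A1 CEAA, with differences of -0.30 (adjusted p = 0.0356 over all probe sets in limma) and -0.57 (adjusted p = 0.00464).

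Whether the receptors differed was tested directly, NR4A1 WT against NR4A1 CEAA. With NR4A1 WT, 11 of 31 members were lower than with NR4A1 CEAA and 7 were higher in limma, beside 13.4% and 18% of all genes. Rank Product called 3 lower, POLR3G, POLR1G and POLR1B, and 0 higher, beside 0.991% and 1.87% of all genes. Of the 6 Pol I-specific genes 5 were lower, with POLR1H the exception, and of the 5 fully shared subunits 3 were higher. By symbol, the median difference was -0.39 for POLR1, 0.09 for POLR2, -0.20 for POLR3 and 0.03 for all genes.

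POLR3G differed most, at -1.46 (SE 0.09, limma adjusted p = 2.23e-05), a factor of 2.76, followed by POLR1G at -1.36 (SE 0.09, adjusted p = 3.35e-05) and POLR1B at -1.25 (SE 0.06, adjusted p = 8.25e-06). POLR1A, POLR3E, POLR2J4, POLR3A, POLR1E, POLR2B, POLR3B and POLR1F had differences of -0.34 to -0.85. On the followed probe sets, the largest difference in the other direction was that of POLR2J, 0.70 higher with NR4A1 WT (SE 0.08, adjusted p = 0.000284 in limma), then POLR2K (0.44), POLR2L (0.42), POLR2E (0.40), POLR3K (0.34), POLR1D (0.32) and POLR2G (0.27). The second probe set of POLR2E differed more, at 1.03, and that of POLR2K less, at 0.07 and not past the test. Of the subunits lower with both receptors, POLR1C, POLR2H and POLR3D did not differ past the test. Their differences were 0.01 (95% confidence interval -0.12 to 0.15), 0.04 (-0.09 to 0.17) and 0.03 (-0.11 to 0.16). For POLR1C this rested on the probe set followed: with the mean of both, the difference was -0.24 (adjusted p = 0.00621).

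**Figure D4:**
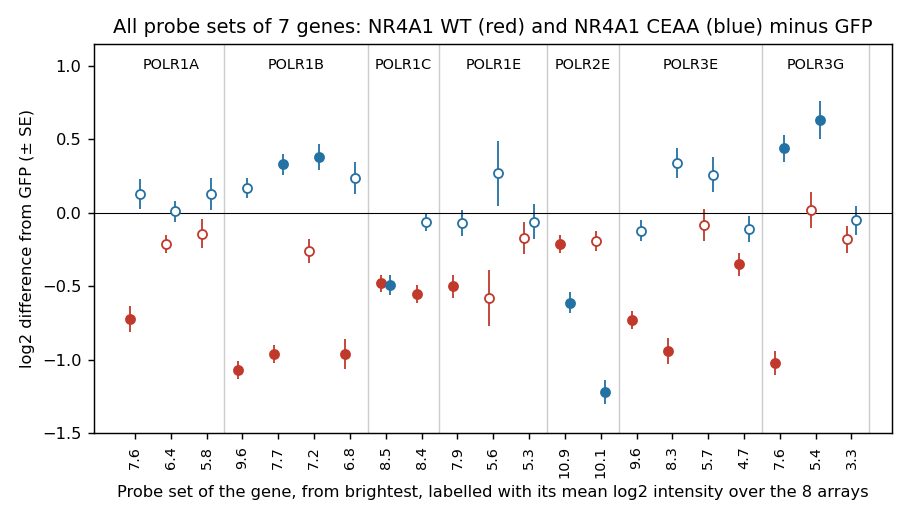
Log2 difference of NR4A1 WT (red) and NR4A1 CEAA (blue) from GFP, with the standard error, for every probe set of 7 genes, ordered from the brightest and labelled with its mean log2 intensity. Filled points passed an adjusted p under 0.05 over all probe sets. The falls of POLR1B and POLR3E with NR4A1 WT recur on further probe sets. For POLR1A, POLR1E, POLR2E and POLR3G, the brightest probe set is the only one that passed the test of NR4A1 WT against GFP. With NR4A1 CEAA, the second probe set of POLR3G also passed, as higher.

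Factors that work with each polymerase were counted from lists of genes, to be read beside the share of all genes, 10.3% lower and 9.97% higher with NR4A1 WT and 12.1% and 7.14% with NR4A1 CEAA. Rank Product called 0 of the Pol I, the Pol III and the assembly factors with NR4A1 WT, and with NR4A1 CEAA 1 Pol III factor lower and 0 of the other 2 lists. Of 7 Pol I factors, 2 fell with NR4A1 WT, TAF1D by 0.46 and UBTF, which binds the ribosomal DNA promoter, by 0.42. With NR4A1 CEAA, 1 was lower, the termination factor TTF1, by 0.25 and close to the threshold (limma adjusted p rounded to 0.05). Higher were 3, RRN3, which recruits Pol I to its promoter (0.45), TAF1A (0.43) and TAF1B (0.39). Tested directly, 5 of the 7 were lower with NR4A1 WT than with NR4A1 CEAA, with RRN3 at -0.61 and TAF1A at -0.65, and Rank Product called 0 of them.

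Of 17 Pol III factors, 4 fell and 3 rose with NR4A1 WT. CRCP, a further Pol III subunit whose symbol lies outside the naming rule, fell by 0.43, GTF3C4 by 0.37 and BRF1, which bridges Pol III and TBP, by 0.34. With NR4A1 CEAA 6 fell and 1 rose, and the largest fall was that of MAF1, the repressor of Pol III, by 0.73, then SNAPC2 by 0.54 and GTF3C5 by 0.36. MAF1 differed by 0.02 with NR4A1 WT.

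Of 17 general initiation factors of Pol II, 2 fell and 4 rose with NR4A1 WT, of which Rank Product called 0 and 2. CCNH, the cyclin of the TFIIH kinase, rose by 0.95, GTF2A1 rose by 0.64, and GTF2H1 fell by 0.40. With NR4A1 CEAA 4 fell and 2 rose (by Rank Product 1 and 0), GTF2F1 falling by 0.68 and GTF2B by 0.35 while GTF2H3 rose by 0.54. Of 13 pausing and elongation factors, 1 rose and 0 fell with NR4A1 WT in limma (at an unadjusted p under 0.05, 4 were lower and 3 higher, and Rank Product called 0 lower and 1 higher). The one that rose was ELL2, by 0.86. With NR4A1 CEAA 4 fell (by Rank Product 1), the kinase CDK9 by 0.67, SUPT4H1 by 0.46 and SUPT6H by 0.39 among them. Of 14 factors for the assembly and nuclear import of polymerases, 6 fell with NR4A1 WT, with URI1 (-0.39), GPN3 (-0.38) and RUVBL1 (-0.38) in front, and 7 fell and 1 rose with NR4A1 CEAA, PIH1D1 (-0.53), GPN2 (-0.50) and RPAP1 (-0.46) falling most.

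The members lower with NR4A1 CEAA were mostly short genes. Their median span from start to end in the annotation (GRCh38.p14) was 6.88 kb, against 65.3 kb for the 4 that were higher and 17.5 kb for the rest. The shortest, POLR2I (1.17 kb), POLR2L (2.81 kb) and POLR2K (3.37 kb), fell with NR4A1 CEAA, and the longest, POLR3B (152 kb), rose. POLR2F (88.3 kb), POLR1D (46.7 kb) and POLR1C (45.3 kb) were long genes that fell. Over the 31 members, Spearman's rho between span and the difference from GFP was 0.58 with NR4A1 CEAA and -0.20 with NR4A1 WT. Over the 19738 genes with a span the values were 0.19 and 0.05. These are descriptions across genes that share the same 8 arrays. Among all genes, the median span was 14.3 kb for those lower with NR4A1 CEAA, 49.2 kb for those higher and 25.3 kb for the rest, so the members followed an order that was also present in the whole table. With NR4A1 WT, the 13 lower members had a median span of 17.8 kb, from 4.09 kb (POLR1G) to 85.7 kb (POLR1A).

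**Figure D5:**
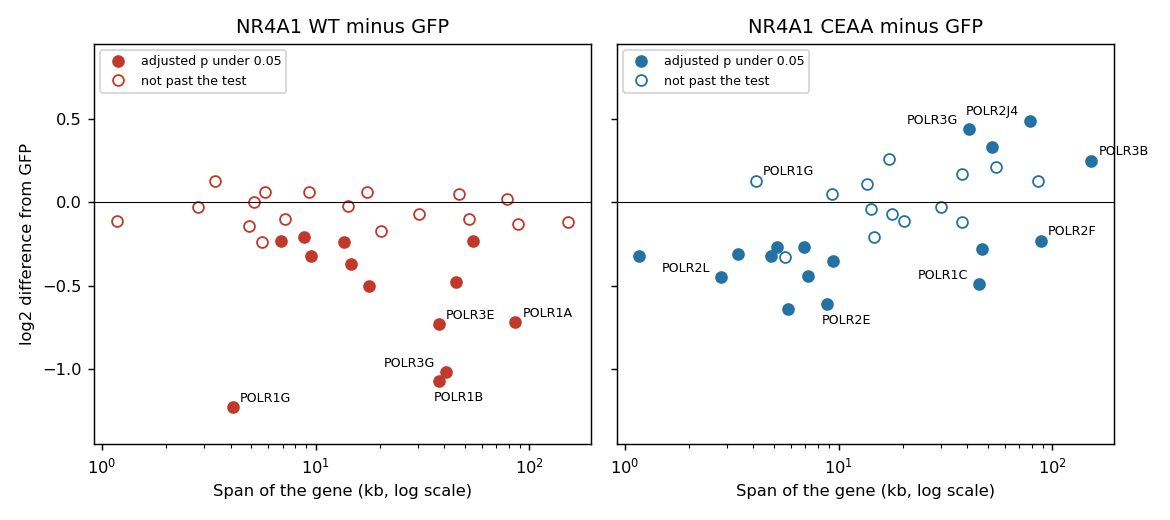
Span of each subunit gene in the annotation (kb, log scale) against its log2 difference from GFP, with NR4A1 WT on the left and NR4A1 CEAA on the right. Filled points passed an adjusted p under 0.05. On the right, the filled points under 10 kb lie below 0, and the 4 filled points above 0 are genes of 40.6 to 152 kb.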

How the data were processed

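Transcripts were measured in 8 arrays: 3 GFP, 3 NR4A1 WT and 2 NR4A1 CEAA. Log2 intensities of probe sets were deposited, which the authors had computed by Robust Multiarray Analysis (background correction, quantile normalization between arrays, summary of the probes of a set). Its version is not given in the sources used here. Of 54613 probe sets, 41091 were listed with 1 gene symbol, 1801 with several and 11721 with none. The first kind stood for 19775 genes, and for each gene the brightest probe set, averaged over all 8 arrays, was taken. The members have 72 probe sets, and 22 members have several. The number of arrays limits the precision.

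The 3 groups were fitted in 1 model with limma 3.58.1 (R 4.3.3; default lmFit and eBayes; 8.04 degrees of freedom per gene), and p-values were adjusted by Benjamini-Hochberg over all genes. Rank Product was written for these data, shuffling the genes of each array 100 times. Both were tested on simulated data. The members and gene lists were chosen with earlier results of these data known. Values in every array are given for the largest and second-largest subunits, for POLR3G and POLR3GL, and for up to 8 members past the test with the largest difference in each comparison. Of each list, up to 3 genes past the test are named, and of the myeloid markers every gene past the test against GFP. TTF1 and the dimmer values named otherwise were chosen after they were seen. Alternatives were Rank Product, an intensity trend, array weights, the arrays compared only, a filter on dim probe sets, 2 further normalizations, the replicate number as a block, the mean of all probe sets, an adjusted p under 0.01, other groupings of members, and each array left out in turn. Promoters and gene spans came from RefSeq (GRCh38.p14). Protein sequences were not analysed here.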

Additional observations from a re-analysis of the deposited data

Results flagged for a closer look

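On the followed probe sets, POLR3G was the one subunit gene with opposite calls for the 2 receptors, below GFP with NR4A1 WT (-1.02) and above it with NR4A1 CEAA (0.44). The difference itself was tested, and NR4A1 WT was lower than NR4A1 CEAA by a log2 difference of -1.46 (SE 0.09, adjusted p = 2.23e-05 in limma). On the second probe set of POLR3G, NR4A1 WT differed from GFP by 0.02 and NR4A1 CEAA by 0.63. The call with NR4A1 CEAA was lost when either mutant array was left out (adjusted p up to 0.0813 in limma). A second probe set of POLR1B had the same pair of calls, -0.96 and 0.33. The cause was not tested. The groups of 2 and 3 arrays are too small for a check of single arrays that lie far from the others.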

How the results depend on the processing

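With NR4A1 WT, Rank Product called 5 members lower in place of 13, and 1 member was higher under the intensity trend and under the filter on dim probe sets (POLR2K). The POLR1 median was -0.61 by the polymerase that holds the subunit, and the POLR3 median was -0.11 with the mean of the probe sets and -0.21 to -0.12 with each array left out. With NR4A1 CEAA, Rank Product called 2 lower and 0 higher and an adjusted p under 0.01 gave 8 and 1. Leaving out each array gave 7 to 13 lower and 1 to 4 higher. The POLR1 median was 0.12 by holding polymerase and -0.07 to 0.07 with each array left out. The POLR2 median was -0.23 after quantile normalization again and -0.21 by holding polymerase. The POLR3 median, -0.04, turned to 0.00 after quantile normalization again and to 0.05 with the mean of the probe sets, so it has no settled sign.

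In the direct comparison, Rank Product called 3 lower and 0 higher. The POLR1 median was -0.46 with the mean of the probe sets, -0.64 by holding polymerase and -0.46 to -0.32 with each array left out. The POLR2 median was 0.05 after quantile normalization again, 0.00 by holding polymerase, 0.15 without the copies POLR2J2 and POLR2J4, and 0.04 to 0.16 with each array left out. The POLR3 median was -0.23 with arrays centered, -0.24 after quantile normalization again, -0.15 with the mean of the probe sets and -0.32 to -0.04 with each array left out. The difference of POLR1C turned to -0.24 with the mean of its probe sets. The ends of the last 3 ranges came from leaving out NR4A1 CEAA replicate 1 or replicate 2. Regrouping, probe set means and left-out arrays change what enters each value, and otherwise the cause was not tested.

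Deviations from the group means had correlations of -0.04 to 0.09 between arrays with the same replicate number. Between arrays with different numbers they were -0.09 to 0.09. In groups of 2 or 3 arrays these deviations cancel within the group, so they cannot decide whether the numbers mark pairs. With the replicate block, 12 members were lower with NR4A1 WT, 10 lower and 3 higher with NR4A1 CEAA, 11 lower and 7 higher in the direct comparison, and the POLR2 median of the direct comparison was 0.06.

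With 2 mutant arrays, calls near the threshold depend on each of them. Signal over background limits what the dim probe sets can show.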

Other observations

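Mitochondria have a polymerase of their own, POLRMT, outside the naming rule. It differed by -0.05 with NR4A1 WT and fell by 0.36 with NR4A1 CEAA. Of 6 genes of mitochondrial transcription, 2 fell with NR4A1 WT in limma, beside 10.3% of all genes. They were TFB2M, by 0.51, and TFAM, which packs mitochondrial DNA, by 0.34. Rank Product called 0 of the 6. With NR4A1 CEAA, POLRMT fell and TFB2M rose by 0.25 in limma, and Rank Product called neither.

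Of 9 genes of the MYC network, 4 fell with NR4A1 WT in limma, beside 10.3% of all genes, and Rank Product called 2 lower. MYC, a regulator of ribosome production, fell by 1.33 (SE 0.05, limma adjusted p = 1.7e-06), MNT by 0.70 and MXI1 by 0.37. With NR4A1 CEAA, MYC rose by 0.57 in limma and no other gene of the list passed the test. Rank Product did not call that rise (q = 0.0805). In the direct comparison the difference of NR4A1 WT from NR4A1 CEAA was -1.91 for MYC, -0.82 for MNT and -0.41 for MXI1.

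Of the myeloid markers, SPI1 fell by 0.97, CEBPA by 0.55 and RUNX1T1 by 0.36 with NR4A1 WT, and PTPRC rose by 0.52 and CD34 by 0.28. KLF1, of the erythroid markers, fell by 0.38 with NR4A1 WT, and EPCAM fell by 0.19. With NR4A1 CEAA, SPI1 fell by 0.55 and CEBPA by 0.40, and PTPRC rose by 0.48 and KIT by 0.25. Of the lymphoid markers, 0 of 6 passed the test against GFP in either comparison in limma or Rank Product, and 1 was higher with NR4A1 CEAA at an unadjusted p under 0.05. In the direct comparison MS4A1 (-0.38) and CD2 (-0.26) were lower with NR4A1 WT. Their part in the subunit results was not tested.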
